A study of Mus musculus with 24 samples.

Results

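The genes of 10 RNA-binding regulators of mRNA decay were followed through the activation of CD4+ T cells from mouse spleen. They were taken by symbol from the 22009 named genes of the expression table, and all 10 were found. They are the tristetraprolin family (Zfp36, Zfp36l1 and Zfp36l2), the roquins (Rc3h1 and Rc3h2), the regnases (Zc3h12a and Zc3h12d) and 3 proteins of AU-rich sequences (Elavl1, Khsrp and Hnrnpd). The series holds 24 RNA sequencing libraries of wild-type C57BL/6 adult spleen CD4+ T cells. Of these, 2 were resting cells, and 18 were cultures taken at 4, 8, 12, 16, 20 and 24 h, with 1 library for each time and condition. All cultures were activated through CD3 and CD28 by antibodies. Th0 cultures had nothing else, Th1 cultures had IL-12 and an antibody to IL-4, and Th2 cultures had IL-4 and antibodies to IL-12 and IFN-γ. In the remaining 4 libraries, actinomycin, which blocks transcription, was added after 16 h of stimulation and cells were taken 0, 1, 2 or 4 h later; under which skewing condition is not given. Cells of several mice were pooled, so the spread between cultures of 1 time point is that between conditions of 1 pool of cells and not between animals. Values are RPKM, read numbers scaled to the length of the gene's transcript and to the size of the library, so each is relative to the whole mRNA of its library.

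Short-lived mRNAs of cytokines and of early response genes often carry AU-rich elements in their 3′ untranslated regions. Proteins of the tristetraprolin family bind these elements through CCCH zinc fingers and recruit deadenylases, so that the mRNA is broken down. Roquins bind short stem-loops, and regnase-1 is an endonuclease for overlapping targets. Mice that lack tristetraprolin or regnase-1 develop inflammatory or autoimmune disease. HuR, the product of Elavl1, mostly protects the mRNAs that it binds, KSRP (Khsrp) promotes their decay, and AUF1 (Hnrnpd) has been described in both roles.

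Some of these regulators carry AU-rich letters in their own mRNA. The heptamer TATTTAT, the core of the element bound by tristetraprolin, was counted on the transcript strand, overlapping copies included, in the longest 3′ untranslated region of a principal GENCODE transcript of GRCm38 (which 3′ ends were used in these cells was not measured). Windows of 30 bases with the most copies are shown for the 6 members with at least 1 copy and for Tnf, a classical target, to show how the regulators' own sites compare with it; capitals mark the heptamer.

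Zfp36: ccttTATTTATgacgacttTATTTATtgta
Zfp36l1: cttatttaacttatcaaaacgTATTTATtg
Zfp36l2: gaaaaactatttaactTATTTATtatcttg
Rc3h1: tacatttatactttactcatTATTTATtga
Rc3h2: ttccagctgcttTATTTATctttttcattg
Elavl1: tTATTTATTTATTTATTTATtttTATTTAT
Tnf: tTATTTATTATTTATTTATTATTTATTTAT

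The windows lie at chr7:28376958-28376987 (Zfp36, minus strand), chr12:80108431-80108460 (Zfp36l1, minus), chr17:84184918-84184947 (Zfp36l2, minus), chr1:160970034-160970063 (Rc3h1, plus), chr2:37374756-37374785 (Rc3h2, minus), chr8:4285777-4285806 (Elavl1, minus) and chr17:35199678-35199707 (Tnf, minus). Zfp36 had 3 copies in 774 bases, and 0.943% of the 1378 3′ untranslated regions of like length (0.8 to 1.25 times as long) had as many. Zfp36l1 had 3 copies in 1835 bases and Zfp36l2 3 copies in 1822 bases, as did 3.26% and 3.14% of regions of like length. Elavl1 had 8 copies in 4218 bases, a number reached by 0.260% of 768 regions of like length. The longer regions of Rc3h2 (3 copies in 5160 bases) and Rc3h1 (2 copies in 7181 bases) held counts that 15.6% and 47.5% of regions of like length also reached. Zc3h12a, Zc3h12d, Khsrp and Hnrnpd had 0 copies in 856, 2327, 1642 and 5429 bases. Over the 10274 genes with such a region, 28.1% held the heptamer.

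The number of mapped reads, recovered from the steps of the low values, was between 17512385 and 33017133 in the cultures, 19759081 and 23541816 in the resting libraries and 18052931 to 25735543 after actinomycin. For 5 members (Zfp36, Zfp36l2, Zc3h12d, Elavl1 and Khsrp) the reads themselves could be recovered and were between 348 and 19078 per library, so that exact Poisson 95% intervals reached at most 11.1% above and 10.2% below a value (counting error only). The labels of resting and cultured cells bear different tags, with no word on what a tag stands for, and whatever it marks cannot be told apart from activation. T cell markers were present throughout: the RPKM values of 8 genes such as Cd3e and Cd4 summed to 2162 to 2179 at rest and 1508 to 1778 at 24 h. The summed markers of other cells were lower at 24 h than at rest. At 4 h those of neutrophils (8.60 to 13.4, beside 11.3 to 13.8 at rest) and platelets (23.9 to 39.0, beside 30.9 to 33.7) overlapped their resting values. The neutrophil sum was 7.43 to 19.0 in the actinomycin libraries, and 2 of 4 tested neutrophil genes were called lower at 24 h. The sum of 11 monocyte and macrophage genes was 590.8 to 612.5 at rest, 51.1 to 83.9 at 4 h and 8.31 to 13.2 at 24 h, with 9 of 9 tested genes called lower at 24 h and no marker at 0. The sum of 7 red cell genes was 38837 to 42382 at rest, 29387 to 47109 at 4 h and 142 to 212 at 24 h, and that of 8 B cell genes was 73.1 to 84.0 at rest and 10.3 to 19.6 at 24 h. The monocyte and macrophage sum was thus lower at 4 h as well as at 24 h, whereas the red cell sum at 4 h spanned its resting values; the part of these cells in the fall of a gene described below was not tested. In the actinomycin libraries the monocyte and macrophage sum was 57.1 to 80.2 and the red cell sum 1148 to 2521, both above the cultures of 24 h. The B cell sum there was 3.79 to 5.21, below those cultures. In bulk RNA fewer cells of a type and less RNA per cell cannot be told apart.

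The 10 mRNAs spanned a wide range in resting cells. Zfp36 stood highest at 312 ± 16.9 RPKM (SD, n = 2), followed by Zfp36l2 (226 ± 5.33), Hnrnpd (179 ± 13.9) and Zfp36l1 (154 ± 1.40). Khsrp was at 35.6 ± 0.403 RPKM, Rc3h1 at 20.5 ± 0.189, Zc3h12a at 19.7 ± 0.776, Elavl1 at 16.8 ± 0.479 and Rc3h2 at 13.4 ± 0.835, and Zc3h12d was the lowest at 11.4 ± 0.662. Each gene was above the next in both libraries, although Rc3h1 (lowest 20.35) and Zc3h12a (highest 20.22) nearly met. By 24 h the order was another one. Hnrnpd led at 308 ± 25.2 RPKM (SD, n = 3), before Zfp36l1 (128 ± 10.9) and Khsrp (61.3 ± 8.58), and Zfp36 had gone from the first place to the seventh (29.3 ± 4.38). In between were Zfp36l2 (45.9 ± 6.51), Zc3h12d (45.6 ± 12.8) and Elavl1 (33.7 ± 1.48), of which Zc3h12d overlapped with both others; every other gene was above the next in all 3 libraries. Rc3h1 (16.5 ± 0.545), Zc3h12a (13.8 ± 2.10) and Rc3h2 (9.97 ± 0.342) closed the list.

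**Figure D1:**
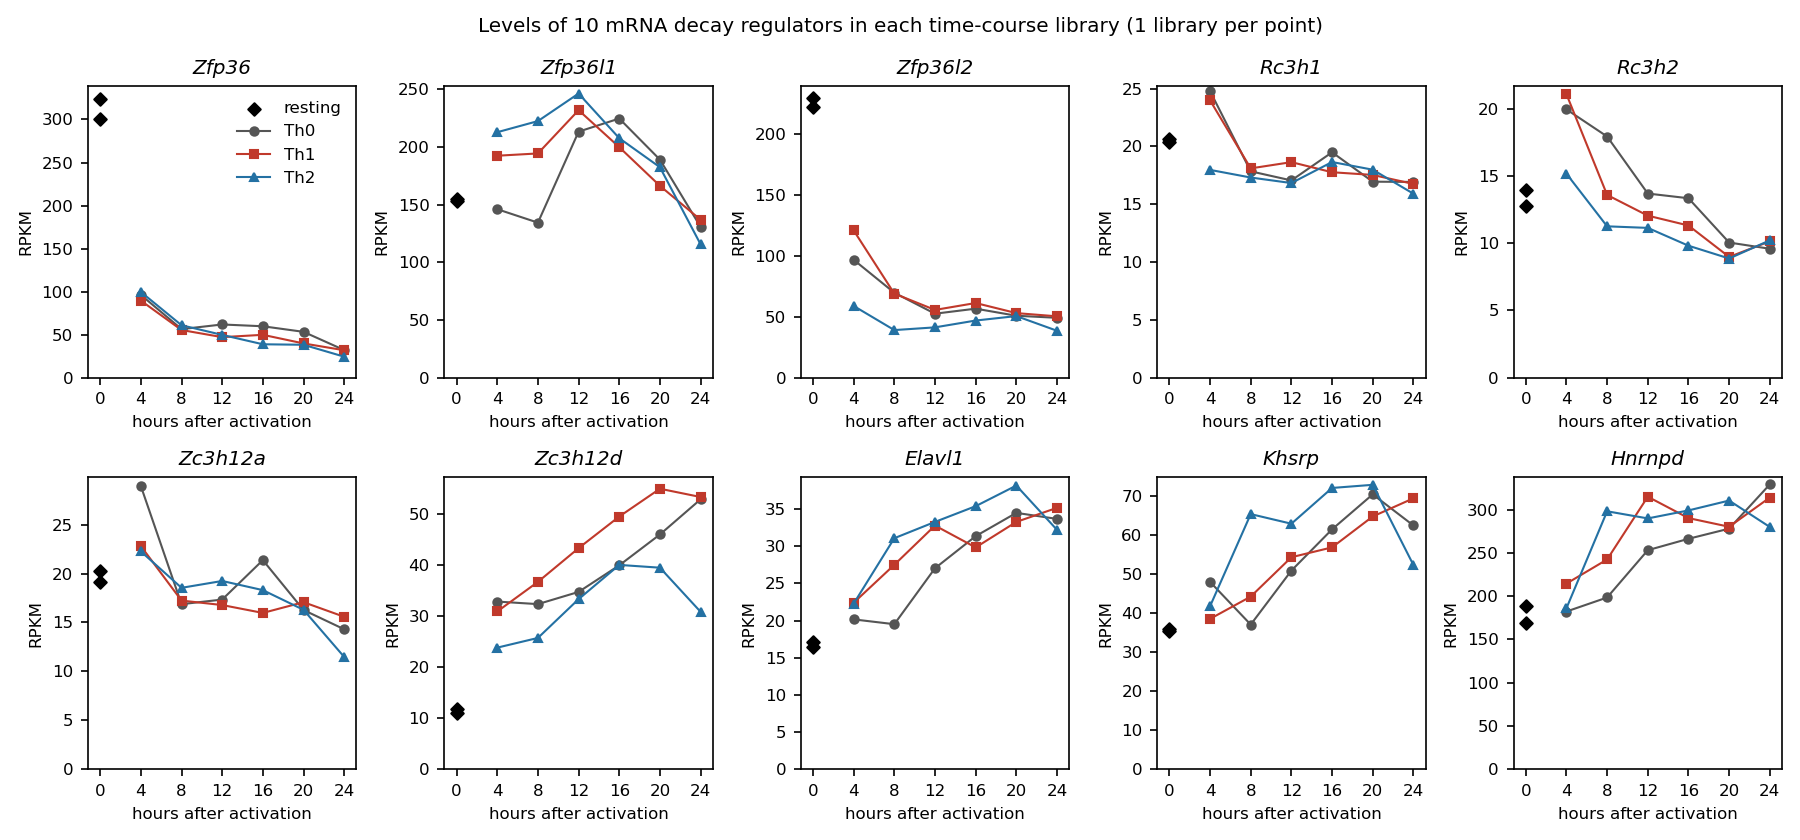
Each panel plots 1 gene, with hours after activation on the horizontal axis and RPKM from 0 on the vertical axis; diamonds are the 2 resting libraries and each other point is 1 culture (Th0 circles, Th1 squares, Th2 triangles). Zfp36 and Zfp36l2 drop from at least 222 RPKM at rest to at most 120.7 RPKM at 4 h, Zfp36l1 peaks at 12 or 16 h, and Zc3h12d is above both resting values in all 18 cultures.

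Changes from rest were tested with limma on log2(RPKM + 0.5), and a gene was called when it changed at least 2-fold at a Benjamini-Hochberg adjusted p under 0.05. The 3 cultures of a time point served as its libraries, and all time points share the same 2 resting libraries. Of the 10 genes, 1 rose and 2 fell at 4 h, where 2.61% of the 10897 genes tested were called higher and 7.97% lower. The counts were the same at 12 h (background 10.7% higher and 16.4% lower) and at 24 h (12.7% higher and 17.4% lower), and at each of these times the riser was Zc3h12d and the genes that fell were Zfp36 and Zfp36l2. The median log2 difference of the 10 genes was 0.24 at 4 h, 0.23 at 12 h and -0.29 at 24 h, beside -0.04, -0.07 and -0.04 over all genes tested. Between 4 and 24 h, Zfp36 fell and 0 of the 10 rose, against a background of 13.2% called lower and 13.0% called higher.

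**Figure D2:**
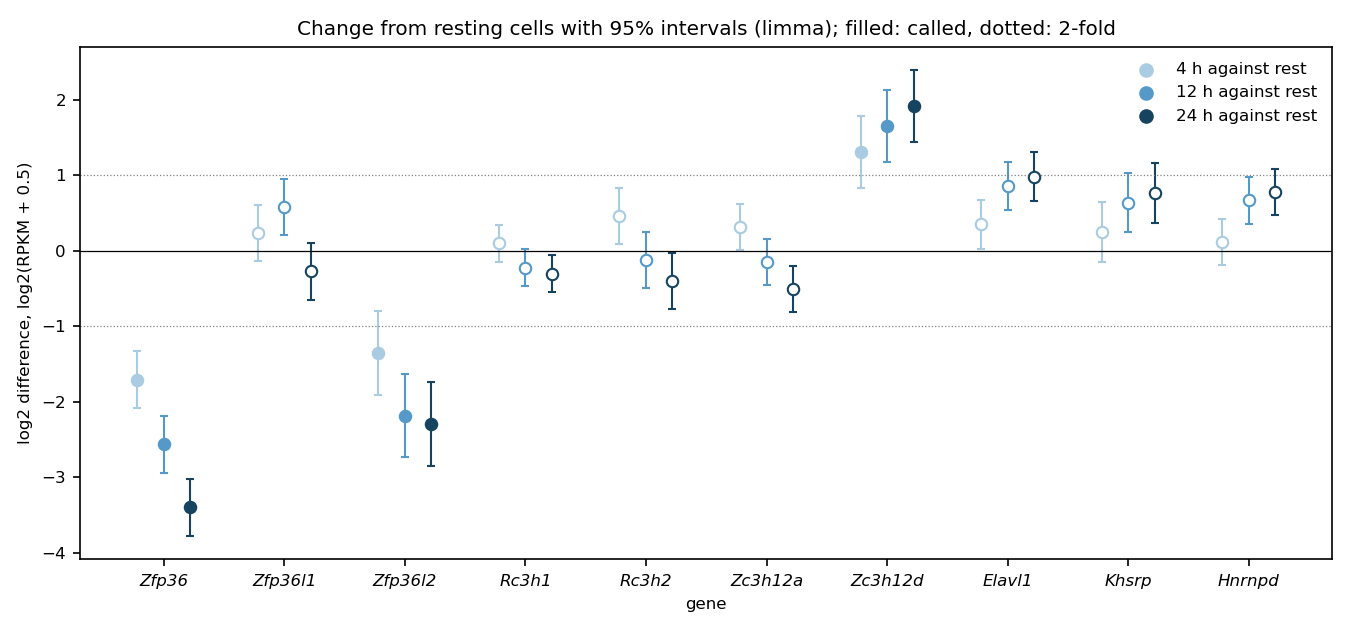
The log2 difference from resting cells is plotted for each gene at 4, 12 and 24 h (light to dark), with 95% intervals from limma; filled points were called and dotted lines mark a 2-fold change. Zfp36 and Zfp36l2 lie below the lower line and Zc3h12d above the upper line at all 3 times, and the other 7 genes lie between the lines.

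Zfp36, which encodes tristetraprolin itself (ENSMUSG00000044786.6, chromosome 7, 28376784 to 28380253, minus strand), measured 300.1 RPKM (10625 reads) and 323.9 RPKM (13666 reads) at rest. At 4 h it had 96.1 RPKM in Th0, 89.5 in Th1 and 99.6 in Th2. At 24 h it had 32.0 RPKM in Th0, 31.8 in Th1 and 24.3 in Th2. All 18 cultures were below both resting libraries, and every culture at 24 h was below every culture at 4 h. The log2 change from rest was -1.71 ± 0.18 (SE) at 4 h, -2.56 ± 0.18 at 12 h and -3.40 ± 0.18 at 24 h, with limma adjusted p-values of 2.61e-06, 5.15e-09 and 9.72e-11. The mean at 24 h was thus 0.0940 of the resting mean. The further change from 4 to 24 h was -1.69 ± 0.16 (limma adjusted p = 2.88e-07). Its estimate does not use the resting libraries, but they enter the fit that gives the SE and the p-value. The monocyte and red cell sums also declined over that interval, by the values above.

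Zfp36l2 (ENSMUSG00000045817.8, chromosome 17, 84183931 to 84187947, minus strand), a paralog known for its part in lymphocyte development, had 222 and 229.6 RPKM at rest. At 4 h it had 96.6 RPKM in Th0, 120.7 in Th1 and 58.8 in Th2, and from 8 h on it stayed between 38.4 and 69.6 RPKM. All 18 cultures were below both resting libraries. The log2 change was -1.35 ± 0.26 (SE) at 4 h, -2.18 ± 0.26 at 12 h and -2.30 ± 0.26 at 24 h, with limma adjusted p-values of 0.000886, 3.60e-06 and 1.74e-06. From 4 to 24 h the difference was -0.95 ± 0.23 (limma adjusted p = 0.00211), just short of 2-fold. Without the Th2 cultures it was -1.11, and under quantile normalization -1.09.

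Zfp36l1 (ENSMUSG00000021127.7, chromosome 12, 80107754 to 80113013, minus strand), the third family member and a partly redundant partner of Zfp36l2 in thymocytes, stayed within 2-fold of rest in every culture. It had 155 and 153 RPKM at rest, 146 to 213 RPKM at 4 h and 213 to 246 RPKM at 12 h. The highest culture was Th2 at 12 h (246 RPKM) and the lowest Th2 at 24 h (116 RPKM), and 13 of 18 cultures were above both resting libraries. The log2 difference from rest was 0.24 ± 0.18 (SE) at 4 h, 0.58 ± 0.18 at 12 h and -0.27 ± 0.18 at 24 h, with limma adjusted p-values of 0.336, 0.00955 and 0.183, and none reached 2-fold. Under quantile normalization Zfp36l1 differed from rest by 0.30 at 12 h (adjusted p = 0.110) and by -0.57 at 24 h (adjusted p = 0.00472). Its adjusted p at 12 h was 0.0529 without resting replicate 2 and 0.0656 without the Th1 cultures, and at 4 h it was 0.0325 without the Th0 cultures. With both paralogs lower, the make-up of the family shifted. Zfp36 supplied 45.1% ± 1.08 of the summed RPKM of the family at rest and 14.4% ± 0.747 at 24 h, whereas Zfp36l1 supplied 22.3% ± 0.873 at rest (SD, n = 2), 69.2% ± 3.96 at 12 h and 63.0% ± 1.61 at 24 h (SD, n = 3). The summed level of the 3 genes was 692 ± 20.8 RPKM at rest, 371 ± 31.9 at 4 h and 203 ± 21.7 at 24 h.

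Neither roquin was called at 4, 12 or 24 h. Rc3h1 (roquin-1; ENSMUSG00000040423.10, chromosome 1, 160906418 to 160974978, plus strand) had 20.6 and 20.4 RPKM at rest and between 15.9 and 24.8 RPKM in the cultures, where 2 of 18 libraries, Th0 and Th1 at 4 h, were above both resting libraries and the other 16 were below. Its log2 difference was 0.10 ± 0.12 (SE) at 4 h and -0.30 ± 0.12 at 24 h (limma adjusted p = 0.540 and 0.0310), under 2-fold. At 24 h the adjusted p of Rc3h1 was 0.106 when libraries were quantile normalized, 0.184 with median-of-ratios scaling, 0.118 and 0.0987 without resting replicate 1 or 2, and 0.0616 and 0.114 without the Th0 or Th1 cultures. Rc3h2 (roquin-2; ENSMUSG00000075376.10, chromosome 2, 37370069 to 37422903, minus strand) had 14.0 and 12.8 RPKM at rest. At 4 h it had 19.9 RPKM in Th0, 21.1 in Th1 and 15.2 in Th2, all above rest, and at 24 h it had 9.58, 10.1 and 10.2 RPKM, all below rest. Neither difference from rest passed the test for Rc3h2 (log2 0.46 ± 0.18 with adjusted p = 0.0561 at 4 h and -0.40 ± 0.18 with adjusted p = 0.0531 at 24 h by limma). At 4 h the adjusted p of Rc3h2 was under 0.05 with median-of-ratios scaling (0.0235), under quantile normalization (0.0101) and without the Th2 cultures (0.00688), and at 24 h it was 0.0225 without the Th2 cultures and 0.0154 with the resting and 24 h libraries alone. From 4 to 24 h, however, Rc3h2 differed by -0.86 ± 0.16 (limma adjusted p = 0.000164), and by -1.02 without the Th2 cultures, which is past 2-fold.

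Of the regnases, Zc3h12d rose and Zc3h12a was not called. Zc3h12d (regnase-4, also known as TFL; ENSMUSG00000039981.6, chromosome 10, 7832470 to 7870396, plus strand), a lymphocyte member of the family, had 11.8 and 10.9 RPKM at rest, from 957 and 1050 reads. At 4 h it had 32.8 RPKM in Th0, 30.9 in Th1 and 23.8 in Th2. At 24 h it had 52.8 RPKM in Th0, 53.3 in Th1 and 30.8 in Th2. All 18 cultures were above both resting libraries, with a maximum of 54.9 RPKM in Th1 at 20 h. The log2 change from rest was 1.31 ± 0.23 (SE) at 4 h, 1.65 ± 0.23 at 12 h and 1.92 ± 0.23 at 24 h, with limma adjusted p-values of 0.000321, 1.29e-05 and 2.33e-06. The mean at 24 h was 4.01 times the resting mean of Zc3h12d.

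Zc3h12a (regnase-1; ENSMUSG00000042677.7, chromosome 4, 125118423 to 125127840, minus strand), which is cleaved by the protease MALT1 after T cell receptor stimulation, had 20.2 and 19.1 RPKM at rest. At 4 h its Th0, Th1 and Th2 cultures had 28.9, 22.8 and 22.3 RPKM, all above rest, and at 24 h they had 14.3, 15.6 and 11.5 RPKM, all below rest. Its log2 difference was 0.31 ± 0.14 (SE) at 4 h and -0.51 ± 0.14 at 24 h (limma adjusted p = 0.112 and 0.00544), and -0.82 ± 0.13 from 4 to 24 h (adjusted p = 4.21e-05), each under 2-fold. At 4 h the adjusted p of Zc3h12a was 0.0311 when libraries were quantile normalized and 0.0276 with median-of-ratios scaling. These are mRNA values, and cleavage of the protein is not measured by them.

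The 3 genes for AU-binding proteins were higher at 24 h, but their tested log2 differences were under the 2-fold limit. The mean RPKM of Elavl1 was 2.10 times its resting mean at 20 h, a time not tested against rest, and 2.00 times at 24 h. Elavl1 (ENSMUSG00000040028.10, chromosome 8, 4285382 to 4325413, minus strand) had 16.5 and 17.2 RPKM at rest. It had 20.2 to 22.4 RPKM at 4 h and 32.2 to 35.2 RPKM at 24 h, and all 18 cultures were above both resting libraries. The log2 difference was 0.35 ± 0.15 (SE) at 4 h, 0.86 ± 0.15 at 12 h and 0.98 ± 0.15 at 24 h, with limma adjusted p-values of 0.0922, 0.000161 and 3.95e-05. The value of Elavl1 at 24 h sits at the limit: it passed 2-fold with median-of-ratios scaling (1.12), with quantile normalization (1.07), without resting replicate 2 (1.01) and without the Th2 cultures (1.01).

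Khsrp (ENSMUSG00000007670.10, chromosome 17, 57021051 to 57031522, minus strand) had 35.9 and 35.3 RPKM at rest and its cultures ran from 37.0 RPKM (Th0, 8 h) to 72.8 RPKM (Th2, 20 h), all of them above rest. Its log2 difference was 0.25 ± 0.19 (SE) at 4 h and 0.77 ± 0.19 at 24 h (limma adjusted p = 0.333 and 0.00194). Hnrnpd (ENSMUSG00000000568.15, chromosome 5, 99955935 to 99978938, minus strand) had 189 and 169 RPKM at rest and its cultures ran from 182 RPKM (Th0, 4 h) to 329 RPKM (Th0, 24 h). Of the 18 cultures 16 were above both resting libraries, and the other 2, at 4 h, lay between them. Its log2 difference was 0.12 ± 0.15 at 4 h and 0.78 ± 0.15 at 24 h (limma adjusted p = 0.585 and 0.000212). By the adjusted p alone, 4 of the 10 genes were higher at 24 h (Zc3h12d, Elavl1, Khsrp and Hnrnpd) and 4 were lower (Zfp36, Zfp36l2, Rc3h1 and Zc3h12a), where 31.6% and 33.6% of all genes tested were. The share of all called genes that were higher at 24 h depends on the scaling: 1389 were higher and 1891 lower as deposited, 1850 and 1613 under quantile normalization, and 1724 and 1621 with median-of-ratios scaling. Quantile normalization moved the median difference over all genes from -0.04 to 0.13, and Zfp36, Zfp36l2 and Zc3h12d were called in the same direction under each scaling.

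Over the 20 libraries of the time course, the profiles of the members were compared by Pearson correlations of log2(RPKM + 0.5) between libraries that share time points and a common pool of cells. Elavl1 and Hnrnpd had r = 0.95, Elavl1 and Khsrp 0.93, and Khsrp and Hnrnpd 0.87. Zfp36 and Zfp36l2 had r = 0.90, and Rc3h1 and Zc3h12a 0.81. Zfp36 ran opposite to Zc3h12d (r = -0.87) and Elavl1 (r = -0.86), and Zfp36l1 was near 0 with both Zfp36 (0.04) and Zc3h12d (0.08).

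Among 8478 genes that averaged 5 RPKM or more, those with the most similar profile to Zfp36 were Cd68 (r = 0.97), one of the macrophage markers above, Dusp1 (0.97), an early response phosphatase whose mRNA is itself a known target of tristetraprolin, and Ppp1r15a (0.97), a stress-induced phosphatase subunit. For Zfp36l2 they were Sash3, Slc43a2 and Sema4a (each 0.97), and for Zfp36l1 Blcap (0.91), Fyn (0.91) and Rgcc (0.87). The nearest to Zc3h12d were Cnn3 (0.94), Agfg1 (0.92) and Trip10 (0.92). For Elavl1 they were Smarcc1, Nelfe and Eif4h (each 0.98), for Khsrp Ubap2l, Uba1 and Ankrd52 (each 0.98), and for Hnrnpd Dhx9, Hnrnpa3 and Mrfap1 (each 0.97). Rc3h1 was nearest to Rprd2 (0.94), Prrc2b (0.92) and Mon2 (0.91), Rc3h2 to Avl9, Bmt2 and Uhrf2 (each 0.96), and Zc3h12a to Skiv2l (0.95), Ubr4 (0.94) and Pdcd6ip (0.93).

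Whether skewing moved these genes was asked by comparing the 6 cultures of a condition with those of another, time point by time point, in limma. The 6 cultures are successive times of 1 pool of cells, each sequenced once. The p-values therefore measure how steady a difference was over time in 1 series, not the spread between animals or repeated cultures. Between Th2 and Th0, 0 of the 10 genes were called at 2-fold (2.01% of 10737 genes were), between Th2 and Th1 again 0 (1.96%), and between Th1 and Th0 also 0 (0.494%). At an unadjusted p under 0.05 the numbers of members were 5, 2 and 1 of 10, where 41.2%, 25.3% and 16.4% of all genes were. By the adjusted p alone, 4 genes were lower in Th2 than in Th0 (Zfp36, Zfp36l2, Rc3h2 and Zc3h12d; background 16.7% lower) and 2 lower than in Th1 (Zfp36l2 and Zc3h12d; background 8.71% lower). For Zfp36 the adjusted p against Th0 missed 0.05 with median-of-ratios scaling (0.0782), without a filter (0.0647) and without the 12, 16, 20 or 24 h cultures (0.107, 0.161, 0.130 and 0.0712), for Rc3h2 without those of 8, 12 or 16 h (0.0716, 0.0550 and 0.0654), and for Zc3h12d without those of 4 h (0.0537).

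Zfp36l2 was the lowest in Th2 at all 6 time points. The ratio of Th2 to Th1 was 0.487 at 4 h and 0.566 at 8 h, and between 0.742 and 0.954 later. The mean log2 difference of Zfp36l2 was -0.42 ± 0.10 (SE) for Th2 against Th0 and -0.52 ± 0.10 against Th1, with limma adjusted p-values of 0.00758 and 0.00276. The slope over time differed between Th2 and Th1 by 0.039 ± 0.011 log2 per hour for Zfp36l2 (adjusted p = 0.0928), and 0 of the 10 slopes passed, where 1.09% of all genes did. At an unadjusted p under 0.05 there were 2 members of 10, and 18.2% of all genes.

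Zc3h12d was below Th1 in the Th2 culture at all 6 time points and below Th0 at 5, the ratio to Th0 being 1.00 at 16 h. The gap was widest at 24 h, when the ratio was 0.583 to Th0 and 0.578 to Th1. The log2 difference of Zc3h12d was -0.30 ± 0.09 (SE) against Th0 and -0.47 ± 0.09 against Th1 (limma adjusted p = 0.0168 and 0.00157). Rc3h2 was lower in Th2 than in Th0 at 5 of 6 time points (-0.31 ± 0.09, adjusted p = 0.0172) and Zfp36 at 4 of 6 (-0.27 ± 0.09, adjusted p = 0.0398). Against Th1 the differences were -0.17 ± 0.09 for Rc3h2 and -0.07 ± 0.09 for Zfp36, with adjusted p-values of 0.234 and 0.683. For Elavl1 Th2 was above Th0 at 5 of 6 time points, with a ratio of 1.59 at 8 h, and the difference was 0.22 ± 0.08 (adjusted p = 0.0563). It passed an adjusted p of 0.05, still under 2-fold, with median-of-ratios scaling (0.27, adjusted p = 0.0199), under quantile normalization (0.23, adjusted p = 0.0416) and without the 24 h cultures (0.28, adjusted p = 0.0269). For Zfp36l1 the Th2 culture had 1.46 times the Th0 value at 4 h and 1.66 times at 8 h, and between 0.885 and 1.15 times later, and the mean difference was 0.19 with a 95% interval from -0.04 to 0.42. For Th1 against Th0 the 95% intervals of Zfp36l2 (-0.12 to 0.32), Zc3h12d (-0.02 to 0.35) and Zc3h12a (-0.29 to 0.10) included 0. The member with the largest difference in that comparison was Zfp36, at log2 -0.20. Its Th1 culture had less than its Th0 culture on all 6 occasions, with ratios from 0.747 (20 h) to 0.993 (24 h). By the adjusted p alone, 0 of the 10 members passed for Th1 against Th0.

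**Figure D3:**
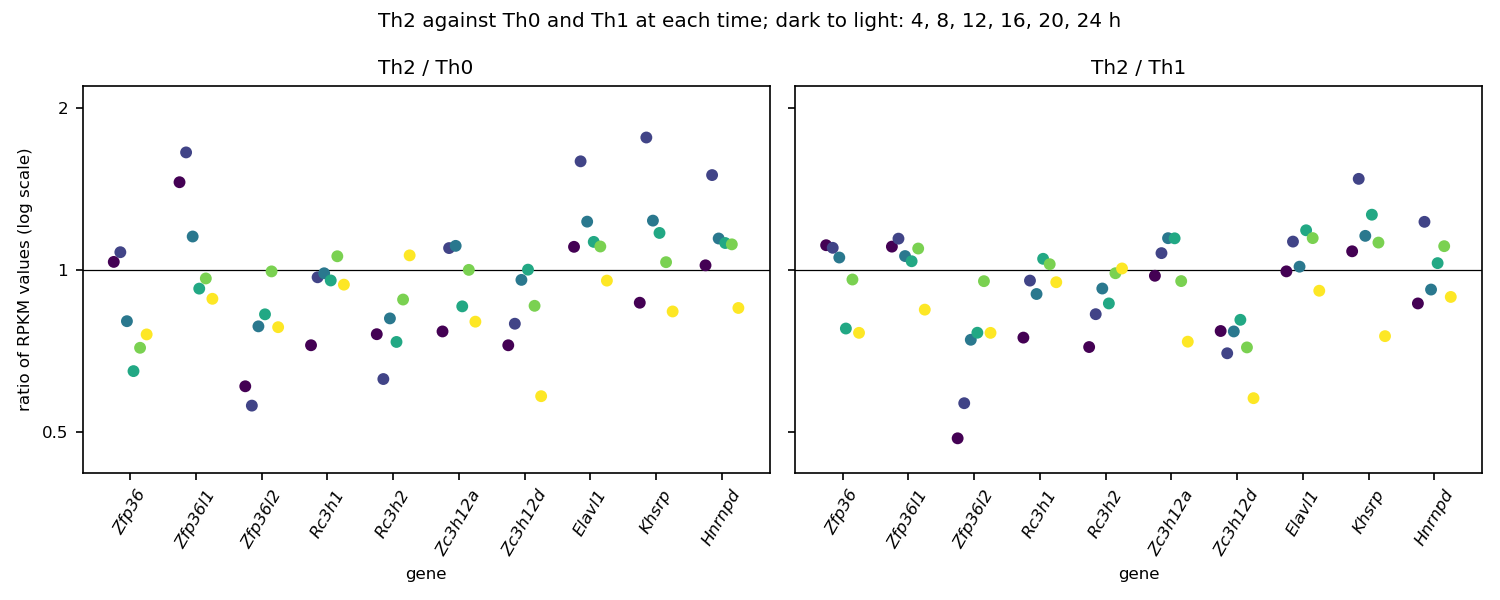
The ratio of the RPKM in Th2 to that in Th0 (left) and Th1 (right) is plotted on a log scale for each gene, with 1 point per time point from 4 h (dark, left) to 24 h (light, right). All 6 points of Zfp36l2 lie below 1 in both panels, as do those of Zc3h12d against Th1, and the lowest ratio is 0.487, of Zfp36l2 to Th1 at 4 h.

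The actinomycin libraries show how the levels of these mRNAs went once new transcription was blocked, relative to the rest of the mRNA, with 1 library for each time. Before the drug had acted, at 0 h, Zfp36 was at 36.4 RPKM, beside 38.7 to 59.7 in the 3 cultures of 16 h, Zfp36l1 was at 141 RPKM, beside 199.9 to 225, and Zfp36l2 was at 44.1 RPKM, beside 46.8 to 61.2. The tristetraprolin family then had the lowest remaining levels of the 10 at 2 h. Zfp36 had 22.5 RPKM at 1 h, 10.4 at 2 h and 22.1 at 4 h, so 28.4% was left at 2 h and 60.6% at 4 h. Zfp36l1 had 80.5, 46.7 and 66.8 RPKM (33.1% left at 2 h and 47.3% at 4 h), and Zfp36l2 had 29.2, 21.1 and 23.9 RPKM (47.8% and 54.2%). Of 10571 genes tested, 0.170% had as low a change from 0 to 2 h as Zfp36, 0.388% as low as Zfp36l1 and 2.49% as low as Zfp36l2. For the change from 0 to 4 h these shares were 12.2%, 4.43% and 7.85%, with 6.12% for Elavl1. All 3 were higher at 4 h than at 2 h, as were 58.2% of all genes. The log2 difference from 2 to 4 h was 1.06 for Zfp36, 0.51 for Zfp36l1 and 0.18 for Zfp36l2. The median over all genes was 0.08, and the cause of the larger differences was not tested. The 95% counting interval of Zfp36 was 9.30 to 11.5 RPKM at 2 h and 20.5 to 23.8 RPKM at 4 h.

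Elavl1 went from 32.1 RPKM through 25.6 and 18.2 to 16.2 RPKM, lower at every step, with 50.4% left at 4 h. Zc3h12d went from 43.1 RPKM through 39.1 and 25.7 to 25.4 RPKM (59.1% left). Rc3h1 had 14.1 RPKM at 0 h and 10.9 to 11.2 RPKM later. Khsrp and Hnrnpd were near their starting level at 4 h, with 97.2% and 96.2%, and Rc3h2 and Zc3h12a were above it, with 126% and 130%. Zc3h12a had 10.7 RPKM at 0 h and 13.9 at 4 h, beside 16.0 to 21.4 in the cultures of 16 h. At 0 h Rc3h1 (14.1 beside 17.8 to 19.5) and Khsrp (54.0 beside 56.7 to 72.0) were below those cultures too. Elavl1, Zc3h12d, Rc3h2 and Hnrnpd lay within their range.

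By a straight line over the 4 times, Zfp36l1 fell by 0.25 log2 per hour (SE 0.06, limma adjusted p = 0.000543) and was the 1 member called at a limit of 0.25 per hour, where 5.58% of all genes were called lower and 3.97% higher. By the adjusted p alone, 5 of the 10 were lower (12.0% of all genes were): the slopes were -0.24 for Elavl1, -0.20 for Zfp36l2, -0.20 for Zc3h12d and -0.17 for Zfp36, with adjusted p-values of 0.00133, 0.00759, 0.00658 and 0.0494. None of these 5 passed an adjusted p of 0.05 without the 0 h library or without a filter on low values, where the adjusted p was 0.0526 to 0.511 without a filter. The median slope of the 10 was -0.12, and that of all genes 0.002. An exact two-sided permutation of the 4 times, whose smallest possible p is 0.0417, gave 0.333 for Zfp36l1, 0.0833 for Elavl1, 0.125 for Zc3h12d, 0.250 for Zfp36l2 and 0.542 for Zfp36. The calls turned on single libraries. Without the 4 h library, 4 members were called, namely Zfp36 (-0.88 per hour), Zfp36l2 (-0.52), Elavl1 (-0.40) and Zfp36l1, and without the 0 h library 0 were, with slopes of 0.07 for Zfp36 and -0.04 for Zfp36l1. Without the 2 h library the slope of Zfp36l1 was -0.23, under the limit.

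**Figure D4:**
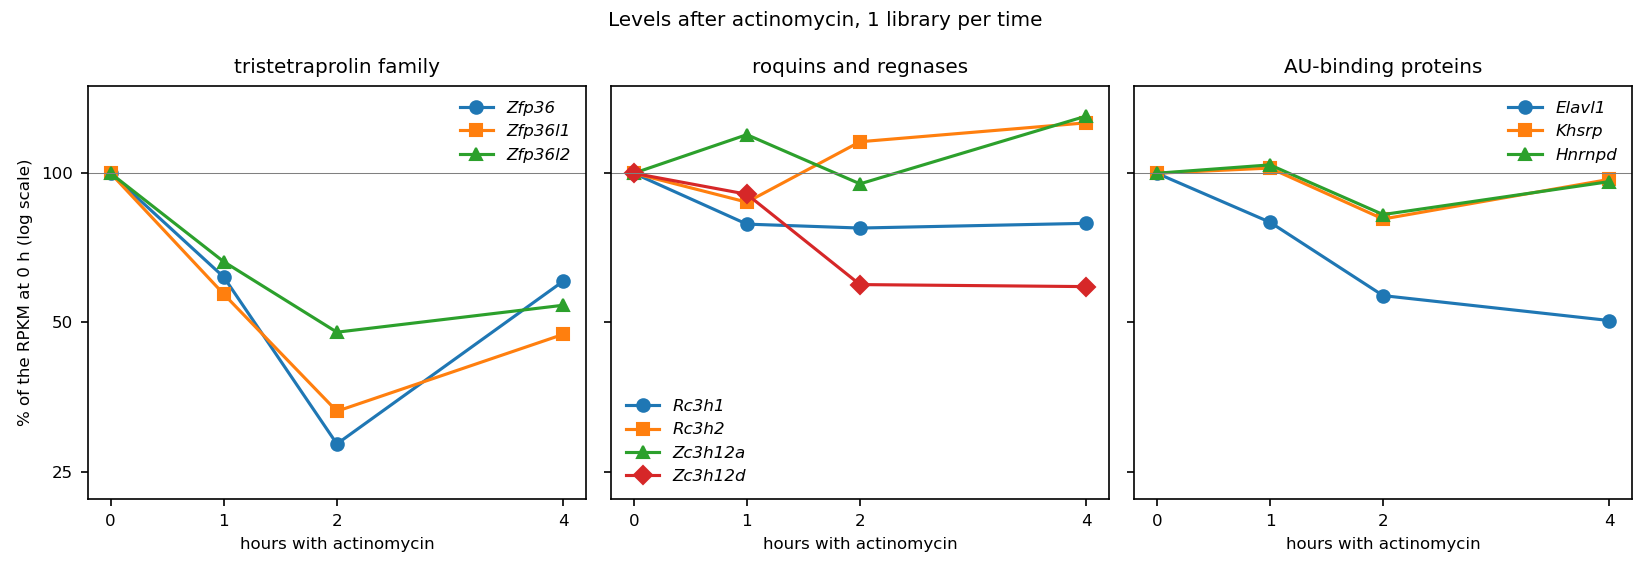
The RPKM in percent of the 0 h library is plotted on a log scale against hours with actinomycin, for the tristetraprolin family (left), the roquins and regnases (middle) and the AU-binding proteins (right), with 1 library per time. Zfp36, Zfp36l1 and Zfp36l2 reach 28.4%, 33.1% and 47.8% at 2 h and are higher at 4 h, whereas Elavl1 declines to 50.4% at 4 h.

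The mRNAs that these proteins are known to bind or shorten were followed as a list. Of 27 such targets, chosen with earlier results of these data known, 25 were tested in the time course. At 4 h 14 rose and 3 fell, beside 2.61% called higher and 7.97% lower over all genes. At 12 h 15 rose and 5 fell, beside 10.7% and 16.4% of all genes. At 24 h 14 rose and 5 fell, beside 12.7% and 17.4%. The median log2 difference of the targets at 24 h was 1.87. Il2, the T cell growth factor, had 1.37 RPKM in both resting libraries, 7.07 to 38.2 at 4 h and 104 to 199.8 at 24 h (log2 6.19, limma adjusted p = 4.47e-08 at 24 h). Irf4 was at 10.4 to 10.5 RPKM at rest and 256 to 295 at 24 h (log2 4.65, adjusted p = 9.63e-11). Tnf had 13.0 to 13.2 RPKM at rest and 55.7 to 147 at 4 h (log2 2.77, adjusted p = 0.000125). The roquin and regnase targets Icos (log2 2.21) and Tnfrsf4 (3.51) rose by 24 h, and so did Myc (2.58), Csf2 (2.69) and Nfkbid (1.27), with limma adjusted p-values of 9.18e-10, 1.17e-08, 4.29e-05, 0.000905 and 0.00155.

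The early response targets Fos and Dusp1 fell, as Zfp36 did. Fos had 531 to 551 RPKM at rest and 5.63 to 6.50 at 24 h (log2 -6.38, limma adjusted p = 1.20e-12), and Dusp1 had 218 to 234 RPKM at rest and 6.00 to 8.86 at 24 h (log2 -4.77, adjusted p = 5.52e-13). Nfkbiz fell as well (log2 -1.89, adjusted p = 2.04e-05). Ifng had 28.5 to 29.7 RPKM at rest, 14.9 to 206 RPKM at 4 h and 66.2 to 388 RPKM at 24 h, with its maximum of 499.9 RPKM in Th1 at 16 h, and did not pass (adjusted p = 0.161 at 24 h). After actinomycin 11 of 26 targets fell and 0 rose (median slope -0.24 per hour), beside 5.58% called lower and 3.97% higher over all genes. Among those that fell were Myc (-0.42), Irf4 (-0.40), Csf2 (-0.34), Ifng (-0.32) and Tnf (-0.25), with limma adjusted p-values of 4.64e-09, 9.67e-09, 0.00510, 2.69e-06 and 0.00304. Icos (-0.06) and Tnfrsf4 (-0.10) did not pass. These slopes, like those of the members, rest on 1 library per time. Over all genes 1010 were called, but 503 without the 4 h library, 654 without the 0 h library and 531 without a filter.

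Of the decay machinery that the members recruit, 1 gene in 3 lists was called at 4 h, lower, in the exosome list. Over all genes tested, 2.61% were called higher and 7.97% lower at 4 h. Of 17 tested genes of the CCR4-NOT and PAN2-PAN3 deadenylases, 0 were called at 4 h and 4 (23.5%) fell at 24 h, beside 17.4% of all genes, among them Tob1 (40.1 to 41.1 RPKM at rest, 6.26 to 7.89 at 24 h) and Btg2 (138 RPKM at rest, 29.4 to 44.1 at 24 h), antiproliferative adaptors of the deadenylase. Of 16 decapping genes 3 (18.8%) rose and 2 (12.5%) fell at 24 h, beside 12.7% and 17.4% of all genes: Lsm7 (log2 1.58) and Lsm2 (1.43) of the LSM ring were higher, and the helicase gene Ddx6 (-1.04) and the exonuclease gene Xrn1 (-1.03) lower, with limma adjusted p-values of 0.000116, 7.62e-06, 8.36e-05 and 0.000474. Of 16 exosome and SKI complex genes 8 rose and 0 fell at 24 h, beside the same shares of all genes, with the catalytic subunit gene Dis3 (10.0 to 11.7 RPKM at rest, 32.5 to 38.0 at 24 h) and Exosc2 (28.5 to 30.1 and 78.4 to 90.3) leading, and the median log2 difference was 1.00.

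Among 20 tested genes of other RNA-binding proteins 4 (20.0%) rose and 1 (5.00%) fell at 24 h, beside 12.7% and 17.4% of all genes. Ybx1 (275 to 283 RPKM at rest, 765 to 859 at 24 h) and Hnrnpab (154 to 162 and 384 to 459), a relative of Hnrnpd, had the largest rises, and Zc3hav1, the zinc finger antiviral protein, fell (log2 -1.02, limma adjusted p = 0.00127). Among 10 genes for kinases, proteases and ligase parts that act on the members, 2 (20.0%) rose and 0 fell at 24 h, beside the same shares of all genes. Mapkapk2 and Mapkapk3, kinases that phosphorylate tristetraprolin and weaken its action, rose by log2 1.23 and 1.44 (limma adjusted p = 2.48e-05 and 1.55e-05).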

How the data were processed

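The authors deposited 1 table of RPKM values per gene symbol for 24 libraries; the submitters' processing notes name BWA and GRCm38, with no versions, and how reads shared by paralogs were counted is not given in the sources used here. The labels call the cells purified CD4+ cells, whereas the methods also name naive cells. Of 22010 rows, 1 had no gene name and summed to 0. Tests used limma (3.58.1, R 4.3.3), with its variance prior following the mean, after a log2 transform of RPKM + 0.5; genes below a mean of 1 RPKM over the fitted libraries were left out, and p-values were adjusted over all genes tested. Conditions were fitted over 18 cultures with the time as a factor, and slopes after actinomycin over 4 libraries. Reads were taken as recovered where all values of a gene lay within 0.02 of whole multiples of 1 step. Python 3.11.15, numpy 2.4.6, pandas 2.3.3 and scipy 1.17.1 were used. The members and all gene lists were chosen with earlier results of these data known; 1 listed gene is not reported here. The genes named are the members, for each other list up to 2 with the largest called rise and 2 with the largest called fall at 24 h, 10 chosen targets, and the 3 genes most similar to each member. Alternatives were quantile and median-of-ratios scaling, a minimum mean of 0 or 5 RPKM, added constants of 0.1 and 1, and only the time points compared. Others left out each resting library, condition, time point or actinomycin library, but no single culture.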

Additional observations from a re-analysis of the deposited data

How the results depend on the processing

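Of 1060 refits of single members, 1016 gave the same sign and the same call. Besides the adjusted p, the limit was 2-fold between groups, 0.25 log2 per hour after actinomycin, and none for slope differences. The calls of Zfp36, Zfp36l2 and Zc3h12d against rest were kept in all refits. Between 4 and 24 h, 1 member was called, but 2 under quantile normalization and 1 to 3 when a resting library or a condition was left out (3 without the Th2 cultures). After actinomycin 1 member was called, 2 with median-of-ratios scaling, 0 without a filter, 0 under quantile normalization (Zfp36l1 had adjusted p = 0.214 and 0.109 there) and 0 to 4 when a library was left out. Over all genes the actinomycin count of 1010 was 665 at a mean of at least 5 RPKM, 531 without a filter and 503 to 1004 when a library was left out. The count at 4 h was 646 in place of 1152 at a mean of at least 5 RPKM, which tests fewer genes. The count of slope differences was 68 in place of 117 without a filter, and 22 to 513 when a time point was left out. The cause of these changes was not tested.

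Most reversals concerned small values. At 12 h Rc3h2 was 0.0503 under quantile normalization. For Th2 against Th1, Zc3h12a was 0.0162 with median-of-ratios and 0.00682 with quantile scaling (-0.0464 to 0.0772 when a time point was left out), and Hnrnpd was 0.0234 and 0.0243 (-0.0597 to 0.0409). For Th1 against Th0, Khsrp was 0.0118 with median-of-ratios scaling (-0.0603 to 0.0530) and Rc3h1 was -0.0247 to 0.0263 when a time point was left out. For the slope difference, Elavl1 was 0.00318 with quantile scaling (-0.0106 to 0.0119), Hnrnpd 0.00127 with median-of-ratios and 0.00281 with quantile scaling (-0.0165 to 0.0113), and Zc3h12a -0.0328 to 0.000639 when a time point was left out. After actinomycin, Khsrp was 0.0015 with quantile scaling, and leaving out a library gave -0.883 to 0.0675 for Zfp36, -0.177 to 0.00362 for Rc3h1 and -0.0339 to 0.0920 for Zc3h12a. Pairing by replicate number was not possible because no group shares more than 1 replicate number with another. For the comparisons of conditions, the cultures of a time point were matched only through the time factor of the reported fit. Cultures of the same condition at different times could have been matched by condition. Whether such matching would change the comparisons between culture times was not tested.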
